A study of Mus musculus with 6 samples.

Results

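The genes described here make, carry, bind and break down retinoic acid, the hormone-like acid form of vitamin A. They are Rbp4 and Stra6 for retinol transport, Aldh1a1, Aldh1a2 and Aldh1a3 for synthesis, Crabp1 and Crabp2 for binding inside the cell, and Cyp26a1 and Cyp26b1 for breakdown. They were chosen by name, as 9 of the 18193 genes with a probe set of their own on a mouse whole-genome Affymetrix array, and every probe set annotated to exactly 1 of these symbols was taken, which gave 11 of 45037 tested probe sets. Aldh1a3 had 3 probe sets and each of the other genes had 1.

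RNA came from uterine horns of C57BL6J mice, with the cervix left out. The SF1 group (3 arrays) was Pgrcre/+ SF1LsL/+. Cre from the Pgr locus, which encodes the progesterone receptor, switches on the SF1 transgene in cells that express Pgr. SF1 (Nr5a1) is a nuclear receptor of adrenal and gonadal tissue. The control group (3 arrays) was SF1LsL/+, so both groups carried the transgene allele and the Cre allele of Pgr was in the SF1 group alone. No array held Cre without the transgene. Each array held RNA pooled from 2 uteri, taken 2 weeks after a surgery. The labels do not say which surgery it was, nor the age or hormonal state of the mice. Nothing says how the pools were processed, so the p-values measure the spread between these pools.

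Cells take up retinol carried by retinol binding protein, oxidise it to retinal and then, through the ALDH1A enzymes, to retinoic acid. Retinoic acid acts on nuclear receptors of the RAR and RXR families, and CYP26 enzymes clear it. In the uterus the pathway is known for its part in the development of the female tract and in the response of the endometrial stroma to steroid hormones and to implantation.

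The array facts that bear on these genes are few. Array medians lay between 149.9 and 159.6 intensity units in SF1 and between 159.0 and 162.2 in control, and correlations over all tested probe sets were 0.9912 to 0.9933 within SF1, 0.9875 to 0.9941 within control and 0.9648 to 0.9789 between the groups. The array's beta-actin controls gave a 3' to 5' ratio, which reflects how intact the RNA was, of 2.116 to 2.336 in SF1 and 2.385 to 2.58 in control, without overlap. For Gapdh the same ratio overlapped, at 1.469 to 1.66 in SF1 and 1.527 to 1.697 in control. Their part in the results was not tested. Nr5a1 itself read 151.3 ± 0.13 in SF1 and 151.7 ± 17.4 in control (SD, n = 3 each). Whether its probe sets detect the transgene's transcript could not be settled, so this says nothing about the labels. Pgr fell by 1.34 on the log2 scale (limma adjusted p = 3.23e-05). Pgr dose, Cre and SF1 cannot be told apart in this design.

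Transcripts of the 3 retinoic acid synthesis enzymes were lower in SF1 uteri. Of the 9 genes, 4 fell and 0 rose: all 3 ALDH1A genes and Cyp26a1. The other 5 did not pass the test. Calls were made at an adjusted p under 0.05 in a limma fit over all 45037 probe sets, on log2(intensity + 16), and for a gene with several probe sets the brightest stood for it. The same rule called 8.11% of all genes lower and 8.37% higher (1475 and 1523 genes, or 1056 and 1782 after median centring of the arrays). Over the probe sets, 6 of 11 fell, where 8.08% of all tested probe sets did. The median log2 change of the 9 genes was -0.45, against -0.05 over all genes. In 5 of the 9 genes every SF1 array read below every control array, as in 23.7% of all genes.

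**Figure D1:**
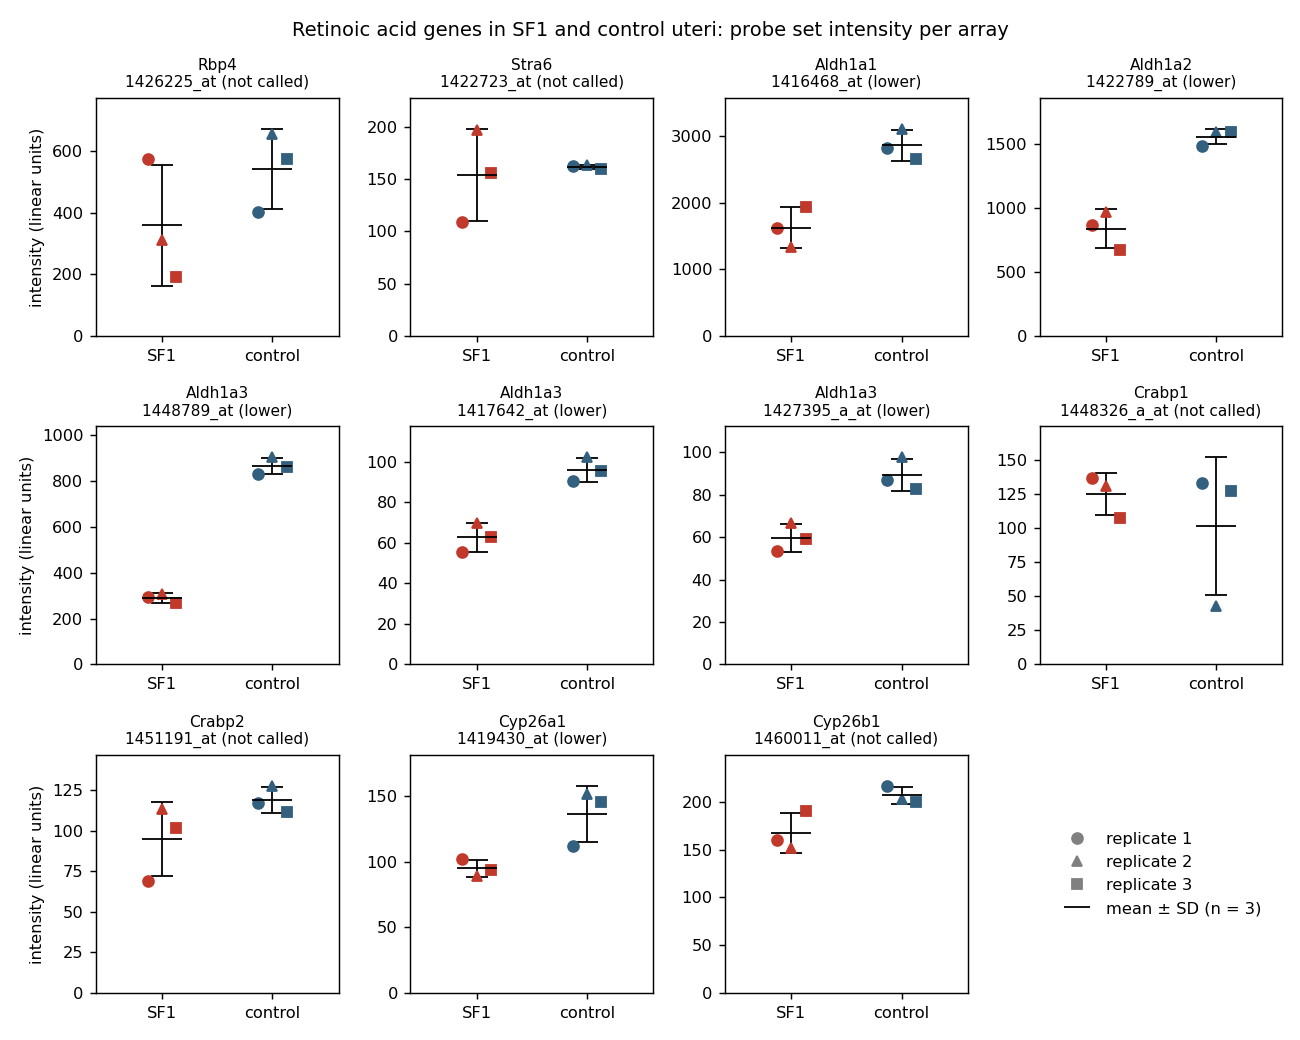
Probe set intensity (linear units, from 0) of each of the 11 probe sets in the 3 SF1 arrays (left, red) and the 3 control arrays (right, blue); marker shapes give the replicate number, and black bars the mean and SD of 3 arrays. The Aldh1a1, Aldh1a2 and Aldh1a3 points of SF1 lie below all control points, while Rbp4, Stra6, Crabp1 and Crabp2 overlap.

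By its brightest probe set, Aldh1a3, a retinal dehydrogenase, had the lowest log2 change of the 9 genes. This probe set read 295.9, 306.8 and 268.0 intensity units in SF1 replicates 1 to 3, against 832.2, 903.2 and 860.3 in control replicates 1 to 3. The SF1 arrays lay close together and far under the lowest control array. The mean of 290.2 ± 20.0 in SF1 was 0.335 times the 865.2 ± 35.7 of control (SD, n = 3 each), a log2 change of -1.53 ± 0.08 (SE; 95% interval -1.71 to -1.34; limma adjusted p = 1.54e-05). Only 0.22% of all genes had a change as low or lower.

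The other probe sets of Aldh1a3 were dim and moved less. One read 55.2, 69.8 and 62.9 in SF1 against 90.3, 102.1 and 95.5 in control (log2 change -0.51, limma adjusted p = 0.00757). The other read 53.5, 66.5 and 59.1 in SF1 against 87.1, 97.6 and 82.7 in control (-0.47, limma adjusted p = 0.0119). All 3 probe sets therefore put SF1 below control without overlap, and they disagree on the size. With 1 added in place of 16 the changes were -0.61 and -0.57 for the dim probe sets and -1.57 for the brightest, so the disagreement remained. This alters the added constant alone, and the part of background in the dim readings was not tested. Averaged over its 3 probe sets, Aldh1a3 had a log2 change of -0.84 (limma adjusted p = 0.000265).

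Aldh1a2, the main retinoic acid synthase of many mesenchymal tissues, read 868.5, 966.2 and 669.1 in SF1 replicates 1 to 3, against 1484, 1589 and 1586 in control replicates 1 to 3. SF1 replicate 3 was the lowest array, and the highest SF1 array was 517.4 units below the lowest control array. The mean of 834.6 ± 151 in SF1 was 0.537 times the 1553 ± 60.3 of control (SD, n = 3 each), a log2 change of -0.90 ± 0.13 (SE; 95% interval -1.19 to -0.61; limma adjusted p = 0.00232).

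Aldh1a1, the third enzyme of the family, read 1616, 1334 and 1936 in SF1 replicates 1 to 3, against 2820, 3109 and 2655 in control replicates 1 to 3. Here SF1 replicate 3 was the highest of its group, the reverse of Aldh1a2. The mean of 1629 ± 301 in SF1 was 0.569 times the 2861 ± 229 of control (SD, n = 3 each), a log2 change of -0.82 ± 0.13 (SE; 95% interval -1.13 to -0.51; limma adjusted p = 0.0046). The intervals of Aldh1a1 and Aldh1a2 overlapped almost wholly. That of the brightest Aldh1a3 probe set lay below both, but those of its dimmer probe sets did not, so no order within the family is drawn.

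**Figure D2:**
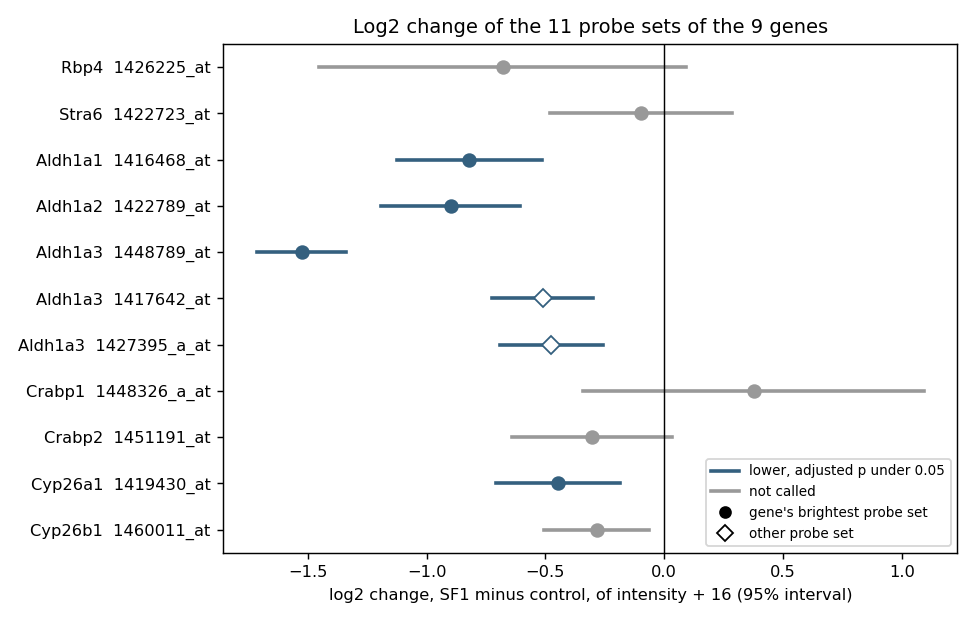
Log2 change, SF1 minus control, of intensity + 16 for the 11 probe sets, with the 95% interval of the limma fit; blue marks an adjusted p under 0.05, open diamonds mark probe sets of Aldh1a3 that are not its brightest. The 5 intervals of the ALDH1A genes lie wholly below 0, between -1.71 and -0.26.

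Cell type markers moved in the same comparison, in which 8.11% of all genes fell and 8.37% rose. In bulk tissue, fewer cells of a type and less RNA per cell cannot be told apart. Of 11 measured genes of endometrial stroma, the compartment that is known to express Aldh1a2, 8 fell and 0 rose (median log2 change -0.72), and their summed intensity was 40936 to 41675 in SF1 and 52709 to 54178 in control. The largest falls among them were those of Twist2 (-1.54), a mesenchymal transcription factor gene, and Wnt5a (-1.13). Vim (-0.02) and Lum (0.06), which stroma also expresses, were not called.

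Of 12 measured genes of the luminal epithelium 4 fell and 5 rose, with a sum of 23116 to 24417 in SF1 and 21203 to 22263 in control. Of 6 gland genes 1 fell (Cxcl15, -2.36) and 1 rose (Foxa2, 0.80), with a sum of 1312 to 1506 in SF1 and 1747 to 1900 in control. The gland sum was lower in SF1 through Cxcl15, at 152.5 to 176.6 in SF1 and 840.2 to 1016 in control. Only 2 of the 6 gland genes had a negative log2 change (median 0.08). Of 9 endothelial genes 8 fell (median -0.47), with a sum of 4609 to 5035 in SF1 and 6888 to 7190 in control. Of 8 genes of mesothelium, the outer lining of the uterus that can express Aldh1a2, 1 fell (Krt19, also an epithelial gene) and 0 rose. Their sums overlapped at 6107 to 6153 in SF1 and 5776 to 6393 in control. The overlap came through Krt19, at 1368 to 1623 in SF1 and 1835 to 2066 in control. Only 2 of the 8 mesothelium genes had a negative log2 change (median 0.15). Krt7 (1.80), a keratin gene, led the epithelial rises and Wnt7a (-1.50) the falls. Of 10 smooth muscle genes 1 fell and 0 rose, and the sums overlapped at 39891 to 42018 in SF1 and 38196 to 40788 in control. Of 7 genes of oviduct and ciliated cells 5 rose and 1 fell (sum 4920 to 7530 in SF1 and 1368 to 1508 in control). The cilium genes Ccdc153 (5.3) and Dynlrb2 (4.6) led the rises, and the gene that fell was the oviduct gene Ovgp1 (-0.73). Of 8 macrophage genes 6 rose and 0 fell (8129 to 11898 in SF1 and 4929 to 6860 in control). Of 8 ovary genes 1 rose (Inha, 0.78) and 1 fell (Foxl2, -1.17), with a sum of 1785 to 1976 in SF1 and 2838 to 2897 in control. The ovary sum differed through Foxl2, at 742.9 to 833.2 in SF1 and 1716 to 1898 in control. The other 6 ovary genes were not called, so the lower sum reflects this 1 gene and not the list. The part of cell composition in the changes of the ALDH1A genes was not tested.

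The genes of retinoic acid breakdown showed smaller differences. Cyp26a1, which clears retinoic acid and is itself switched on by it, read 102.3, 89.6 and 93.5 in SF1 replicates 1 to 3, against 112.0, 152.2 and 145.4 in control replicates 1 to 3. The groups did not overlap, but control replicate 1 lay only 9.65 units above the highest SF1 array. The mean was 95.1 ± 6.5 in SF1 and 136.5 ± 21.5 in control (SD, n = 3 each), a log2 change of -0.45 ± 0.11 (SE; 95% interval -0.71 to -0.19; limma adjusted p = 0.0342). This call was not stable. It was lost with quantile normalization (limma adjusted p = 0.0594), with median centring (0.0561) and without any 1 of the arrays except control replicate 1 (highest 0.104, without SF1 replicate 2).

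The promoter of Cyp26a1 is shown because this gene is known to be switched on by retinoic acid through elements close to its start, and those of Aldh1a1 and Aldh1a2 because both fell. Receptor core hexamers (AGGTCA, with the variants AGTTCA, then GGGTCA, then GGTTCA) were searched on both strands of RefSeq promoter windows (GRCm38.p6), which run from 250 bases before to 50 bases after a start site, together with their direct repeats at 1, 2 and 5 bases of spacing (DR1, DR2 and DR5), the longer SF1 site CAAGGTCA, which contains a core hexamer, and the TATA box TATAAA. Capitals mark the matches. Aldh1a3 and Crabp2 had no entry. The windows are given in the 5' to 3' direction of the gene.
Cyp26a1, chr19:37697558-37697857, plus strand: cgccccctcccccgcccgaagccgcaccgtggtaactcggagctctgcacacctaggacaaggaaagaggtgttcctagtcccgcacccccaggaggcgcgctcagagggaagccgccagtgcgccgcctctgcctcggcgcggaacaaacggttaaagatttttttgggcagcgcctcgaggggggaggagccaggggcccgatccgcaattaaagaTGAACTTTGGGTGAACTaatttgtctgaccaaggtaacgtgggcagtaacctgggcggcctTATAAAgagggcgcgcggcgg
Aldh1a1, chr19:20601718-20602017, plus strand: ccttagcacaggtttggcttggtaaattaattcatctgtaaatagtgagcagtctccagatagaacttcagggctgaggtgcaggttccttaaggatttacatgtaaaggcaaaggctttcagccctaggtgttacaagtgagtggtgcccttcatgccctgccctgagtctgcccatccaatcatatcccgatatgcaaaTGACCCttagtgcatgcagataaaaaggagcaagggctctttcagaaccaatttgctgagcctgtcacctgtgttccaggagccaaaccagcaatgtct
Aldh1a2, chr9:71215539-71215838, plus strand: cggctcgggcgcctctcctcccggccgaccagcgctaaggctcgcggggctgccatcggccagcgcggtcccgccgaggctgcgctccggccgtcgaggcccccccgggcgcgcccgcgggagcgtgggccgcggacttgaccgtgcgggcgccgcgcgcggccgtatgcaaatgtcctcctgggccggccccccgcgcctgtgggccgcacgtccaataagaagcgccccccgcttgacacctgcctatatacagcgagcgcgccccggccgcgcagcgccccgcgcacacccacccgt

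The Cyp26a1 window held a DR5 on the strand opposite to the gene, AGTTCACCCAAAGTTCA, at bases -32 to -16 from the start site, and a TATAAA at 30 to 35. Positions count from the RefSeq start, and the TATAAA lay after it. Whether transcription of Cyp26a1 begins at that start was not tested. A DR5 stood in 1 of 12 windows of 7 of the 9 genes and in 0.0974% of all 32851 promoter windows. DR1 and DR2, present in 0.222% and 0.268% of all windows, had no match in the 12. The 1 of 2 Aldh1a1 windows that starts at base 20601718 held a GGGTCA on the opposite strand at -49 to -44, a hexamer present in 13.7% of all windows, and the other held none of the letters searched. The window of Aldh1a2 held none of the letters searched. CAAGGTCA, present in 1.56% of all windows, had no match in the 12 windows. AGTTCA, inside the DR5, is present in 14% of all windows, AGGTCA in 16.3%, GGTTCA in 10.4% and TATAAA in 13.6%. A match is a description of these letters and not of binding, and no match says only that these letters are not in this window.

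Cyp26b1, the other enzyme of retinoic acid clearance, read 159.6, 151.7 and 190.9 in SF1 replicates 1 to 3, against 216.7, 203.3 and 200.0 in control replicates 1 to 3. Every SF1 array was below every control array, by 9.11 units at the closest. The log2 change of -0.29 (95% interval -0.51 to -0.06) was not called (limma adjusted p = 0.0871), although it was without SF1 replicate 3 (0.0412).

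Rbp4, the carrier of retinol in blood, which liver and fat make in quantity, varied widely between the arrays of a group. It read 574.4, 311.3 and 190.8 in SF1 replicates 1 to 3, against 400.9, 653.7 and 572.5 in control replicates 1 to 3. SF1 replicate 1 read about as high as control replicate 3, and SF1 replicate 3 was lowest of all 6. The mean was 358.8 ± 196 in SF1 and 542.4 ± 129 in control (SD, n = 3 each), a log2 change of -0.68 ± 0.34 (SE; 95% interval -1.45 to 0.09; limma adjusted p = 0.215). Without SF1 replicate 1 the change was -1.07 and was called (adjusted p = 0.0375), and without SF1 replicate 3 it was -0.32 (adjusted p = 0.503).

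The summed fat cell markers had the same order of arrays as Rbp4 within each group. The summed intensity of 7 measured markers was 15647, 12038 and 5418 in SF1 replicates 1 to 3, against 16520, 22568 and 19284 in control replicates 1 to 3. Adipoq, the adiponectin gene, read 2748, 1505 and 405.3 in SF1, against 2385, 3592 and 2797 in control. In SF1 both Rbp4 and the sum of the fat markers were highest in replicate 1 and lowest in replicate 3, and in control both were highest in replicate 2 and lowest in replicate 1. Of the single markers Thrsp alone departed from this, at 1186, 1038 and 1049 in SF1 replicates 1 to 3. Of the 7 markers 2 fell (Thrsp, -1.21, and Retn, -0.64) and 0 rose (median -0.96). The part of fat in the Rbp4 values was not tested.

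**Figure D3:**
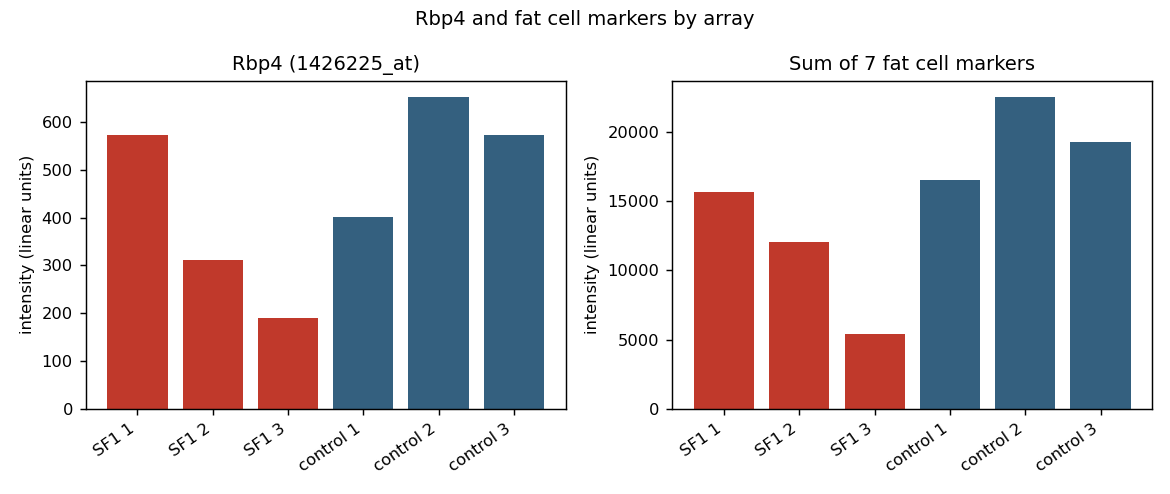
Intensity of Rbp4 (left panel) and summed intensity of 7 fat cell markers (right panel), on linear axes from 0, in the 3 SF1 arrays (red) and the 3 control arrays (blue). In each group the order of the arrays is the same in both panels, and SF1 replicate 3 is lowest in both, at 190.8 and 5418 units.

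Stra6, the membrane receptor that takes up retinol from its carrier, read 109.1, 196.8 and 156.0 in SF1 replicates 1 to 3, against 162.6, 163.3 and 159.8 in control replicates 1 to 3. The control arrays were nearly equal, and the SF1 arrays fell on both sides of them. The log2 change of -0.10 (95% interval -0.48 to 0.28; limma adjusted p = 0.725) turned to 0.11 without SF1 replicate 1. The interval holds changes in either direction.

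The cellular binding proteins were not called either. Crabp1, which holds retinoic acid in the cytosol, read 136.6, 130.5 and 107.2 in SF1 replicates 1 to 3, against 133.3, 42.9 and 127.2 in control replicates 1 to 3. The positive log2 change of 0.38 (95% interval -0.34 to 1.09; limma adjusted p = 0.453) came with 1 low array, control replicate 2, and was -0.06 without it. Crabp2, which delivers retinoic acid to its nuclear receptors, read 69.0, 113.2 and 101.8 in SF1 replicates 1 to 3, against 117.2, 127.5 and 111.5 in control replicates 1 to 3. Its log2 change was -0.30 (95% interval -0.64 to 0.03; limma adjusted p = 0.205), and SF1 replicate 1 was the lowest array. SF1 replicate 1 was also the lowest array for Stra6.

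Other genes of the pathway came from a list of 57, of which 50 were measured. Of these, 8 fell (16%, against 8.11% of all genes) and 3 rose (6%, against 8.37%), and 39 were not called. The median log2 change was -0.08, against -0.05 over all genes. Without control replicate 1 only 5 fell, and over the whole array 965 genes fell in place of 1475.

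Upstream of the ALDH1A enzymes, Rdh10, which makes the retinal they use, read 1003, 1027 and 813.7 in SF1 replicates 1 to 3, against 1479, 1190 and 1408 in control replicates 1 to 3. The groups did not overlap, and the log2 change was -0.51 (limma adjusted p = 0.0231), a call lost without SF1 replicate 1 or 3 or control replicate 1 or 3 (highest 0.0815). Its other probe set read 534.2, 542.7 and 511.7 in SF1 against 1030, 965.2 and 978.7 in control, a log2 change of -0.88 (limma adjusted p = 0.000128). Of 14 genes of the interconversion of retinol and retinal, Rdh10 fell (7.14%, against 8.11% of all genes), 0 rose and 13 were not called. Among 8 genes of storage and transport, Ttr (-0.58), the blood partner of Rbp4, and Rbp7 (-0.52), a cellular retinol binding protein gene, fell. This is 25% of the 8, against 8.11% of all genes. The other 3 probe sets of Ttr were not called, and the call of Rbp7 was lost without any 1 of 4 arrays (SF1 replicates 2 and 3, control replicates 1 and 2; highest limma adjusted p = 0.099).

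Of 4 further enzymes, Aldh1a7 fell and Cyp2s1 rose. Each is 25% of this short list, where 8.11% of all genes fell and 8.37% rose. Aldh1a7, a rodent relative of Aldh1a1 of closely similar sequence, read 294.2, 249.7 and 235.3 in SF1 replicates 1 to 3, against 442.7, 547.4 and 481.3 in control replicates 1 to 3 (log2 change -0.88, limma adjusted p = 0.00117). Whether probes of Aldh1a1 and Aldh1a7 detect each other's transcripts was not tested, so the pair may not be independent. Cyp2s1, a cytochrome P450 gene whose human enzyme can oxidise retinoic acid, read 1690, 1123 and 1748 in SF1 replicates 1 to 3, against 160.2, 125.1 and 172.7 in control replicates 1 to 3. The SF1 arrays stood far above the control arrays, with a log2 change of 3.17 ± 0.18 (SE; 95% interval 2.77 to 3.58; limma adjusted p = 1.83e-05). The direction was opposite to that of Cyp26a1.

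Of 9 receptors and co-factors 2 fell (22.2%, against 8.11% of all genes) and 0 rose (against 8.37%). Rarg, a retinoic acid receptor gene, averaged 628.8 ± 82.2 in SF1 and 980.8 ± 79.7 in control (SD, n = 3 each; log2 change -0.63, limma adjusted p = 0.00666), and its dim other probe set was not called (-0.11). Rxra, the shared partner of many nuclear receptors, averaged 456.1 ± 15.1 in SF1 and 638.1 ± 88.5 in control (SD, n = 3 each; -0.46, limma adjusted p = 0.0224). The call of Rxra was lost without control replicate 1 or any 1 SF1 array (highest 0.0748), and its other probe sets were not called.

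Genes that are known to respond to retinoic acid in other settings went both ways, with 2 of 14 fallen and 2 risen. Each is 14.3% of the list, where 8.11% of all genes fell and 8.37% rose. Plat, the tissue plasminogen activator gene, averaged 2607 ± 140 in SF1 and 4200 ± 228 in control (SD, n = 3 each; log2 change -0.68, limma adjusted p = 0.000887). Nr2f2 (COUP-TFII), a stromal nuclear receptor gene that is also in the stroma list above, averaged 2437 ± 207 in SF1 and 3618 ± 261 in control (SD, n = 3 each; -0.57, limma adjusted p = 0.00474), and each of its 6 probe sets was called lower. Rai14 (0.88) and Rai2 (0.52), named for their induction by retinoic acid, rose, the call of Rai2 being lost without SF1 replicate 1 or 3 (highest limma adjusted p = 0.0644).

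Rarb and Dhrs3, which retinoic acid is known to induce in many cells, were singled out after their values were seen. Rarb read 59.8, 72.1 and 73.1 in SF1 replicates 1 to 3, against 73.0, 60.4 and 76.0 in control replicates 1 to 3, with a log2 change of -0.02 (95% interval -0.26 to 0.21; limma adjusted p = 0.897). Dhrs3, an enzyme that turns retinal back to retinol, read 800.4, 790.9 and 946.4 in SF1 replicates 1 to 3, against 790.7, 412.4 and 685.2 in control replicates 1 to 3, with a log2 change of 0.46 (95% interval -0.02 to 0.94; limma adjusted p = 0.179). Neither was called. Rarb overlapped between the groups, and of Dhrs3 the lowest SF1 array lay just above the highest control array. The Rarb probe set was dim, below the median of all probe sets, so its small change does not show that Rarb was unchanged.

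**Figure D4:**
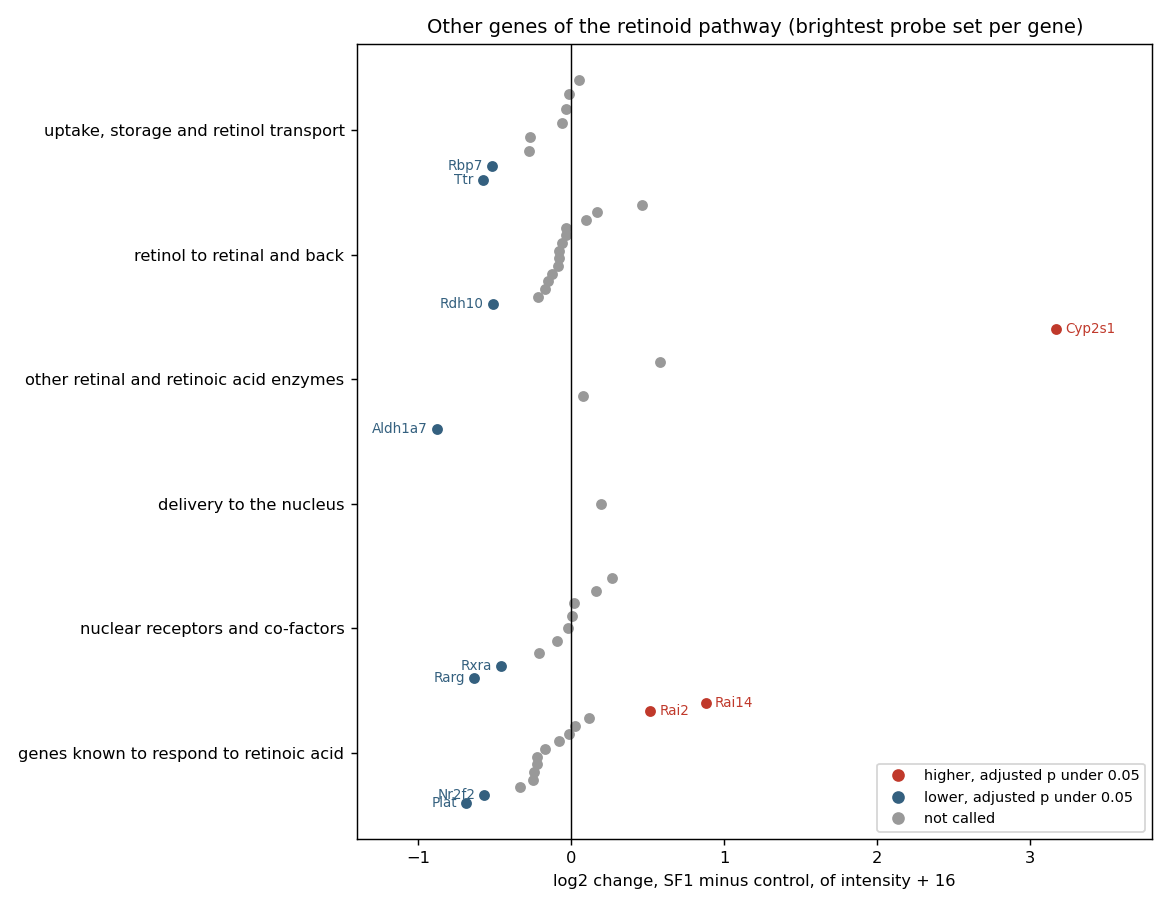
Log2 change, SF1 minus control, of intensity + 16 for the 50 other measured genes of the retinoid pathway (1 point per gene, its brightest probe set), in 6 groups by role; red and blue mark genes called higher and lower at an adjusted p under 0.05 and grey those not called. Most points lie near 0, with Cyp2s1 alone beyond 3 and the 8 lower genes between -0.88 and -0.46.

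The genes with profiles most like the 4 fallen ones were found as the smallest root mean square difference over the 6 arrays of log2 values taken relative to each gene's own control mean. For Aldh1a3 they were Prdm1 (0.09), Slc26a7 (0.09) and Sbspon (0.10). For Aldh1a2 they were Hand2 (0.08), a transcription factor gene of the stroma, Gpt2 (0.09) and Chodl (0.10). Those nearest to Aldh1a1 were Tfcp2l1 (0.07), Tmem200c (0.07) and Cys1 (0.08), and those nearest to Cyp26a1 were Iyd (0.07), Olfm3 (0.07) and Pparg (0.08). All 12 are lower in SF1 by construction of the measure. Hand2 was also in the stroma list. Its log2 change of -0.88 is close to the -0.90 of Aldh1a2 by construction of the measure too.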

How the data were processed

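The deposited table holds probe set intensities on a linear scale for 6 single-colour arrays. The authors' background correction, scaling and summarisation of these intensities are named neither in the labels nor in the table. Such steps affect dim probe sets most, and no detection calls were used here. Of 45101 probe sets, 64 Affymetrix controls were set aside and 45037 tested. A platform annotation table gave 34945 of them 1 gene symbol. The log2 of the deposited value plus 16 was taken and analysed in limma 3.58.1 (functions lmFit and eBayes, R 4.3.3), with Benjamini-Hochberg adjustment over all tested probe sets. Fold changes on this scale understate those of dim genes. Python 3.11.15 with pandas 2.3.3 and matplotlib 3.10.9 made tables and figures. The fit was tested on simulated data. Precision is limited by the small number of arrays.

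The members, gene lists and tests were chosen with earlier results of these data known, so shares above the background are no independent support. The genes named are the 9 members, every called gene of the pathway list, up to 2 called marker genes per direction and list, and the 3 nearest profiles of each called member, without clone and predicted gene names. Vim, Lum, Adipoq, Rarb and Dhrs3 stand outside this rule and were named after their values were seen. Alternatives were quantile normalization, median centring, the brighter probe sets alone, pseudocounts of 1 and 64, a block for the replicate number, a trended and robust eBayes, averaging over the probe sets of a gene, and each array left out. Tests across lists of genes were not run.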

Additional observations from a re-analysis of the deposited data

How the results depend on the processing

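The falls of Aldh1a1, Aldh1a2 and Aldh1a3 (brightest probe set) were called under every alternative run and without each array, with highest adjusted p-values of 0.0211, 0.0114 and 0.00031. This includes the mean over the probe sets of a gene, added for single genes after seeing the data, under which Aldh1a3 had a log2 change of -0.84. The count of fallen members was 3 to 4 over all alternatives, but without SF1 replicate 1 it held Rbp4 in place of Cyp26a1, and without SF1 replicate 3 Cyp26b1 in its place. Of the member probe sets 5 or 6 fell, except that with the brighter probe sets alone 3 of 5 did, since 6 of the 11, Cyp26a1 among them, were then not tested. Leaving out 1 array gave 5 to 6 fallen member probe sets, 5 to 8 fallen genes of the pathway list, 908 to 1118 fallen genes of the whole array (1475 with all) and 2014 to 2668 fallen (3641 with all) and 1757 to 2242 risen probe sets (2650 with all). Over the left-out arrays the log2 change of Stra6 lay between -0.278 and 0.105 (without SF1 replicate 1) and that of Crabp1 between -0.061 (without control replicate 2) and 0.61, so both signs turned. The replicate numbers of the labels did not pair the arrays: deviations of same-numbered arrays correlated at -0.063, -0.101 and -0.184. With the replicate block 932 genes and 2133 probe sets fell, and the calls of Cyp26a1 (0.0805), Rdh10 (0.0528) and Rxra (0.056) were lost. Dim probe sets, Cyp26a1, Stra6, Crabp1, Crabp2 and Rarb among them, lay below the median of all probe sets, where signal over background is least certain.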
